A study of Mus musculus with 217 samples.

Results

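Lowering of mutant huntingtin from conception was compared with lowering from 2 months of age in the striatum of 6-month-old mice. The comparison holds the 10 striatal libraries of LacQ140_A and the 10 of LacQ140_2M, chosen by tissue, age and treatment label, which are 20 of the 217 libraries of the series. All 20 mice were C57BL/6, carried the Hdh(LacO-140Q/+) alleles together with the beta-actin-LacIR transgene. Each group held 5 females and 5 males. LacQ140_A mice never received isopropyl β-D-1-thiogalactopyranoside (IPTG), so that the repressor acted from conception. LacQ140_2M mice received IPTG from embryonic day 5 until 2 months of age and none during the last 4 months. The groups set beside them were LacQ140 (the same genotype with IPTG throughout), WT + IPTG and WT, each with 10 mice. The WT mice, Hdh(LacO-+/+), carried the repressor transgene too. The study asked how the timing of mutant *Htt* (m*Htt*) lowering changes Huntington's disease (HD) phenotypes, and this comparison asks which transcripts depended on m*Htt* expression before 2 months of age or on a remaining difference in *Htt*.

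Huntingtin is a large, widely expressed scaffold protein, and an expanded CAG repeat in exon 1 of its gene causes HD. The spiny projection neurons of the striatum are the most affected cells, and loss of their signalling transcripts is a well known early molecular change in HD mice. In this model a bacterial Lac repressor, driven in all tissues by the beta-actin promoter, binds operator sequences placed around the transcription start of the knock-in allele, and IPTG releases it. The other *Htt* allele is a WT allele without operators, so the *Htt* counts sum a regulated and an unregulated allele.

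The reference sequence before the *Htt* start is shown because this is the promoter that the repressor controls. It is the RefSeq promoter on GRCm38, chr5:34761490-34761739, plus strand, upstream of the annotated start. Capitals mark the *Aat*II site (GACGTC, which reads the same on both strands), where the exchanged operator fragment of the knock-in allele begins. The site ends 7 bases before the end of the window, and 3.77% of 32851 promoter windows of this length hold it.
*Htt* promoter: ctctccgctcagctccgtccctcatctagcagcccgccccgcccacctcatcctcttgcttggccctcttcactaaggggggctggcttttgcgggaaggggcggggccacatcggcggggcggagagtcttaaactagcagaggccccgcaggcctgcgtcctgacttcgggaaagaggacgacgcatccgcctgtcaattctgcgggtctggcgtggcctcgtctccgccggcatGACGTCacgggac

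Summed counts lay between 44425853 and 56224368 in LacQ140_A and between 45363140 and 58288099 in LacQ140_2M. Levels are given as CPM, which are counts scaled to library size, here with TMM factors. These allow a gene to be compared between mice, not one gene with another. The libraries carried the markers of striatum, with *Ppp1r1b*, a phosphatase inhibitor of spiny neurons, at 1910 CPM or more in all 20. None of the 20 went against its sex label. The labels name the right striatum and 1 batch, and do not say how mice were assigned to groups. LacQ140_A replicates F1 and M1 stood apart through pituitary hormone transcripts, as described below, and most counts of the main comparison are also given without them. Counts within a sex, in cortex and against LacQ140 include them.

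*Htt* itself did not separate the groups. In LacQ140_A its lowest, median and highest levels were 72.4, 87.9 and 99.9 CPM, and in LacQ140_2M they were 73.2, 91.4 and 102 CPM. The ranges of the groups overlapped almost completely. The log2 difference, LacQ140_A minus LacQ140_2M, was -0.02 (SE 0.07, 95% confidence interval -0.15 to 0.12, adjusted p = 1.0, edgeR quasi-likelihood test). A two-sided permutation test of log2 CPM with 100000 resamples gave p = 0.784. The medians of both groups lay below the LacQ140 median of 99.6 CPM and the WT median of 113 CPM, while single mice of each group reached the LacQ140 median. Relative to LacQ140, which has the same genotype, the log2 difference was -0.21 in LacQ140_A (SE 0.07, adjusted p = 0.075) and -0.20 in LacQ140_2M (SE 0.07, adjusted p = 0.151), and neither passed the test. Relative to WT the log2 difference was -0.40 (SE 0.07, adjusted p = 0.0002) in LacQ140_A and -0.39 (SE 0.07, adjusted p = 0.0003) in LacQ140_2M. The mutant allele alone was not measured by these counts. Of the 53 genes within 2 Mb of *Htt* at 1 CPM or more, none passed the test, and their median log2 difference was 0.01.

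Across the transcriptome the groups were close. Calls required a Benjamini-Hochberg adjusted p under 0.05 together with a change of at least 20%. Of 35808 genes tested 9 were called (0.0251%), 7 higher (0.0195%) and 2 lower (0.00559%) in LacQ140_A. The same rule called 674 genes (1.88%) between LacQ140_A and LacQ140 and 450 (1.26%) between LacQ140_2M and LacQ140, comparisons that share the LacQ140 libraries. Among the 14721 genes at a mean of 1 CPM or more, 9864 had a 95% confidence interval that lay entirely within a change of 20% in either direction, and 1631 (11.1%) had an unadjusted p under 0.05.

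The 5 called genes with signal in every mouse were *Sec14l3*, *Rasl10a*, *4930539E08Rik*, *Ripor2* and *P2ry14*. The first 3 were higher after lowering from conception and the last 2 were lower, by 1.25 to 1.46 fold.

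*Sec14l3* (ENSMUSG00000054986, chromosome 11, 4064841 to 4077736) encodes a lipid-binding protein of the Sec14 family. Its lowest, median and highest levels were 3.83, 4.77 and 6.50 CPM in LacQ140_A and 2.35, 3.29 and 4.53 CPM in LacQ140_2M. All 10 LacQ140_A mice lay above the LacQ140_2M median, and 6 lay above every LacQ140_2M mouse. The log2 difference was 0.54 (SE 0.11, adjusted p = 0.016), a 1.46-fold difference. The gene was lowest in LacQ140, with a median of 1.94 CPM, while the WT + IPTG and WT medians were 4.75 and 5.37 CPM. Relative to WT the log2 difference was -0.70 in LacQ140_2M (adjusted p = 1.3e-05) and -0.16 in LacQ140_A (interval -0.36 to 0.04, adjusted p = 0.567).

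*Rasl10a* (ENSMUSG00000034209, chromosome 11, 5058128 to 5060385) encodes a small GTPase of the Ras family and lies 980 kb from *Sec14l3*. Its lowest, median and highest levels were 6.53, 8.27 and 10.7 CPM in LacQ140_A and 4.64, 6.02 and 7.47 CPM in LacQ140_2M. Again all 10 LacQ140_A mice lay above the LacQ140_2M median. The log2 difference was 0.48 (SE 0.09, adjusted p = 0.021). The median in LacQ140 was 4.42 CPM and that in WT + IPTG was 7.70 CPM, so the levels ran in the order LacQ140, LacQ140_2M, then the other groups. LacQ140_2M and LacQ140 did not differ under the call rule (log2 difference 0.28, adjusted p = 0.154).

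*4930539E08Rik* is a protein-coding gene on chromosome 17. Its lowest, median and highest levels were 2.18, 3.40 and 4.12 CPM in LacQ140_A and 1.41, 2.30 and 2.75 CPM in LacQ140_2M. Here 7 LacQ140_A mice lay above every LacQ140_2M mouse. The log2 difference was 0.52 (SE 0.11, adjusted p = 0.036). The LacQ140 median, 2.29 CPM, was close to that of LacQ140_2M.

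*Ripor2* (ENSMUSG00000036006, chromosome 13, 24582189 to 24733816) encodes an inhibitor of the GTPase RhoA. Its lowest, median and highest levels were 61.0, 70.7 and 85.2 CPM in LacQ140_A and 75.7, 92.5 and 98.8 CPM in LacQ140_2M. All 10 LacQ140_2M mice lay above the LacQ140_A median. The log2 difference was -0.32 (SE 0.06, adjusted p = 0.016). The medians of the other groups, 82.9 CPM in LacQ140, 89.2 in WT + IPTG and 78.7 in WT, lay between those of LacQ140_A and LacQ140_2M.

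*P2ry14* encodes a receptor for UDP-sugars. Its lowest, median and highest levels were 2.97, 3.66 and 4.94 CPM in LacQ140_A and 4.15, 5.14 and 5.73 CPM in LacQ140_2M. The log2 difference was -0.42 (SE 0.08, adjusted p = 0.026). It was also the only called gene that IPTG changed in WT mice, where it was 0.34 higher on the log2 scale with IPTG (SE 0.08, adjusted p = 0.025). The median in LacQ140, on IPTG throughout, was 4.05 CPM, and LacQ140_2M was higher than LacQ140 (log2 difference 0.36, adjusted p = 0.01).

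**Figure D1:**
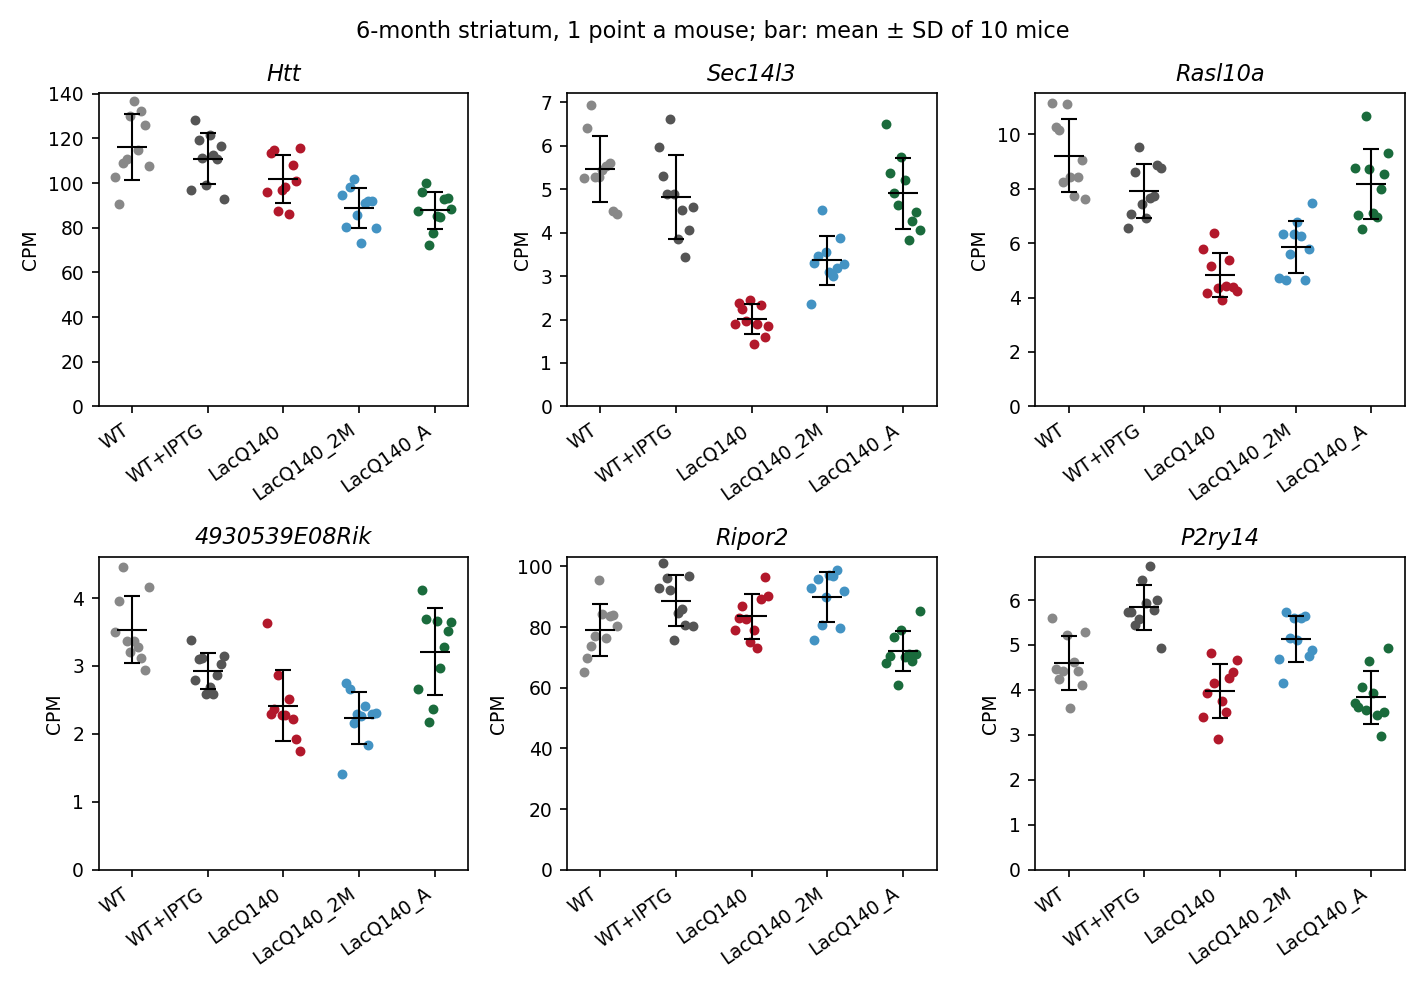
CPM of *Htt* and of the 5 called genes with signal in every mouse, in 6-month striatum. Each point is 1 mouse, and bars give the mean ± SD of 10 mice. *Sec14l3* and *Rasl10a* are lowest in LacQ140, *Ripor2* and *P2ry14* are lower in LacQ140_A than in LacQ140_2M, and *Htt* is alike in the lowering groups.

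None of these 5 genes was called in the same comparison of 6-month cortex from the same mice or of 12-month striatum from other mice. In 12-month striatum the log2 difference was 0.01 for *Sec14l3*, -0.11 for *Rasl10a*, 0.002 for *4930539E08Rik*, 0.0 for *Ripor2* and 0.16 for *P2ry14*. The 12-month intervals were -0.28 to 0.29 for *Sec14l3* and -0.15 to 0.15 for *Ripor2*. The 6-month values were those of genes selected by the call, and the ages were not tested against each other. In cortex *P2ry14* was -0.39 (adjusted p = 0.162) and *4930539E08Rik* 0.27 (adjusted p = 0.129).

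The other 4 called genes rested on 1 or 2 libraries. *Gh*, *Prl* and *Cga* encode growth hormone, prolactin and the shared hormone alpha subunit of the anterior pituitary. *Gh* stood at 37.9 CPM in LacQ140_A replicate F1 and 43.9 CPM in M1, against a group median of 0.477 CPM and a highest value of 1.38 CPM in LacQ140_2M. *Prl* stood at 74.3 and 14.7 CPM in the same libraries, against a highest value of 0.423 CPM in LacQ140_2M, and 4 other LacQ140_A mice also exceeded that value. *Cga*, which averaged under 1 CPM and so falls outside the rule for named genes, stood at 1.06 and 2.18 CPM. The adjusted p-values were 0.0005 for *Gh*, 0.0005 for *Prl* and 0.0007 for *Cga*. *Pomc*, another pituitary transcript, reached 27.2 CPM in M1 and just missed the threshold (adjusted p = 0.0503). The cortex of mouse M1 also held the most *Gh* of its group, 55.3 CPM, and that of F1 the most *Prl*, 73.4 CPM. Without both libraries none of the 3 hormone genes was called. The long noncoding RNA *Gm26723* (chromosome 12, 100208988 to 100209814) rested on LacQ140_A replicate F4, at 26.0 CPM. It was above 0 in 6 LacQ140_A libraries and 1 LacQ140_2M library, and no other of the 20 exceeded 0.183 CPM. In 12-month striatum 1 LacQ140_A mouse reached 90.1 CPM of it.

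**Figure D2:**
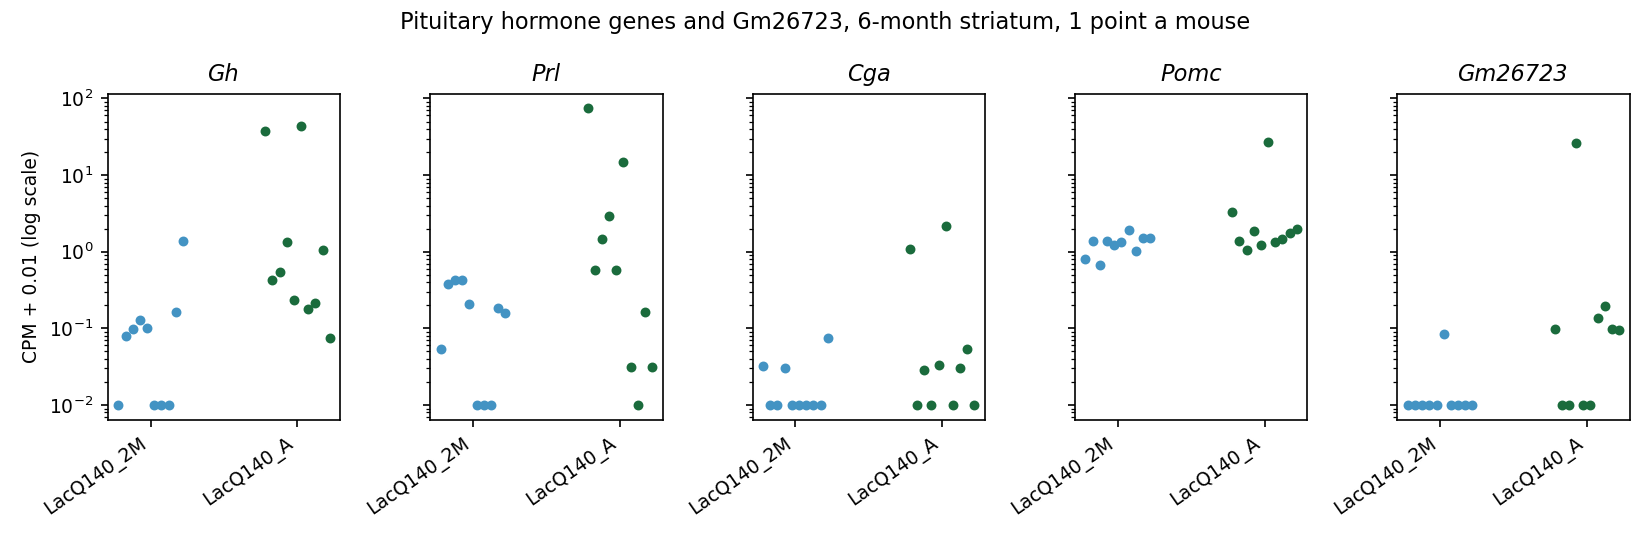
CPM + 0.01 on a log axis for 4 pituitary hormone genes and *Gm26723* in the 20 mice of 6-month striatum. Each point is 1 mouse. LacQ140_A replicates F1 and M1 hold the most *Gh* and *Prl*, and *Gm26723* is far higher in replicate F4 than in the 6 other libraries with any signal.

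With both of those LacQ140_A libraries left out, an alternative added after the data were seen, 1 gene was called (*Gm26723*). The differences of the other 5 genes kept their size, at 0.47 for *Sec14l3*, 0.49 for *Rasl10a*, 0.53 for *4930539E08Rik*, -0.30 for *Ripor2* and -0.42 for *P2ry14*, with adjusted p between 0.167 and 0.313. The summed level of the blood and pituitary list ranged from 190 to 394 CPM in LacQ140_A and from 210 to 397 CPM in LacQ140_2M. Of its 8 members at 1 CPM or more 2 were called, *Gh* and *Prl*. Both reached a mean of 1 CPM only through LacQ140_A F1 and M1, so this share cannot be set against that of all genes. The part of pituitary tissue in the other differences was not tested beyond leaving these libraries out.

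Genes just outside the threshold were *Cldn1*, a tight junction protein (log2 difference -0.68, adjusted p = 0.0503), *Cdh4*, a cadherin (0.33, adjusted p = 0.0503), and *Fgf3*, a fibroblast growth factor (0.48, adjusted p = 0.066). *Fgf3* belongs to the list of genes that fall in several HD models, and it also fell with IPTG in WT mice (log2 difference -0.49, adjusted p = 0.006). *Cldn1* rose with IPTG in WT mice (0.68, adjusted p = 0.015). Both thus differed between the lowering groups in the direction opposite to their IPTG response. The median of *Fgf3* was 6.13 CPM in LacQ140_A, 4.36 in LacQ140_2M and 2.88 in LacQ140. These 3 were chosen after their values were seen.

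The best known dopamine signalling genes of spiny neurons had differences near 0 between the lowering groups. *Drd1* and *Drd2* encode the D1 and D2 dopamine receptors. The lowest, median and highest levels of *Drd1* were 194, 225 and 257.6 CPM in LacQ140_A and 203, 220 and 254 CPM in LacQ140_2M, against a LacQ140 median of 179 CPM. Its log2 difference was -0.01 (95% confidence interval -0.11 to 0.10), and that of *Drd2* was 0.06 (-0.11 to 0.23). *Pde10a*, a striatal phosphodiesterase that breaks down cyclic nucleotides, ranged from 855 to 1145 CPM in LacQ140_A and from 854 to 1190 CPM in LacQ140_2M, with a log2 difference of 0.02 (-0.13 to 0.18). *Ppp1r1b*, which encodes DARPP-32, gave 0.08 (-0.10 to 0.25). Of these 4 genes, *Drd1*, *Drd2* and *Pde10a* were called higher than in LacQ140 in both lowering groups. *Ppp1r1b* was called in LacQ140_A (adjusted p = 0.041) and not in LacQ140_2M (adjusted p = 0.229).

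Several other spiny neuron genes had positive differences that did not pass the adjustment. The study also names *Adcy5*, the main striatal adenylyl cyclase, which gave 0.17 (0.02 to 0.32, adjusted p = 0.657). It names *Scn4b*, a sodium channel subunit, too, which gave 0.16 (0.01 to 0.31, adjusted p = 0.693). *Adora2a*, an adenosine receptor of indirect pathway neurons, had medians of 365 CPM in LacQ140_A and 295 CPM in LacQ140_2M (log2 difference 0.26, adjusted p = 0.244). *Gpx6*, a glutathione peroxidase, had medians of 8.56 and 6.26 CPM, while LacQ140 stood at 2.76 CPM and WT + IPTG at 11.1 CPM (0.53, adjusted p = 0.244). *Scn3b*, another sodium channel subunit, went the other way (-0.24, adjusted p = 0.131). Of the 37 listed genes of spiny neuron cAMP and calcium signalling, all at 1 CPM or more, none was called. They were higher in LacQ140_A for 27 of 37 (beside 48.4% of all such genes), also without LacQ140_A F1 and M1. At an unadjusted p under 0.05 there were 4 in the higher direction and 1 in the lower, where 4.8% and 6.28% of all such genes were. Without LacQ140_2M F3 the 4 became 2. Of 26 ion channel genes 15 were higher, 4 of them at an unadjusted p under 0.05 (15.4%). Without LacQ140_A F1 and M1 these counts were 16 and 3. The 4 became 1 with the replicate block and without LacQ140_2M M3, LacQ140_2M M4 or LacQ140_A F4, and 2 without LacQ140_2M F3, F4 or M1 or LacQ140_A F1 or M3. The median differences were 0.03 for receptors and peptides, 0.03 for cAMP and calcium signalling, 0.01 for ion channels and 0.01 for striatal transcription factors, against -0.004 over all genes at 1 CPM or more. Over the alternatives these 4 medians lay between -0.005 and 0.067.

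**Figure D3:**
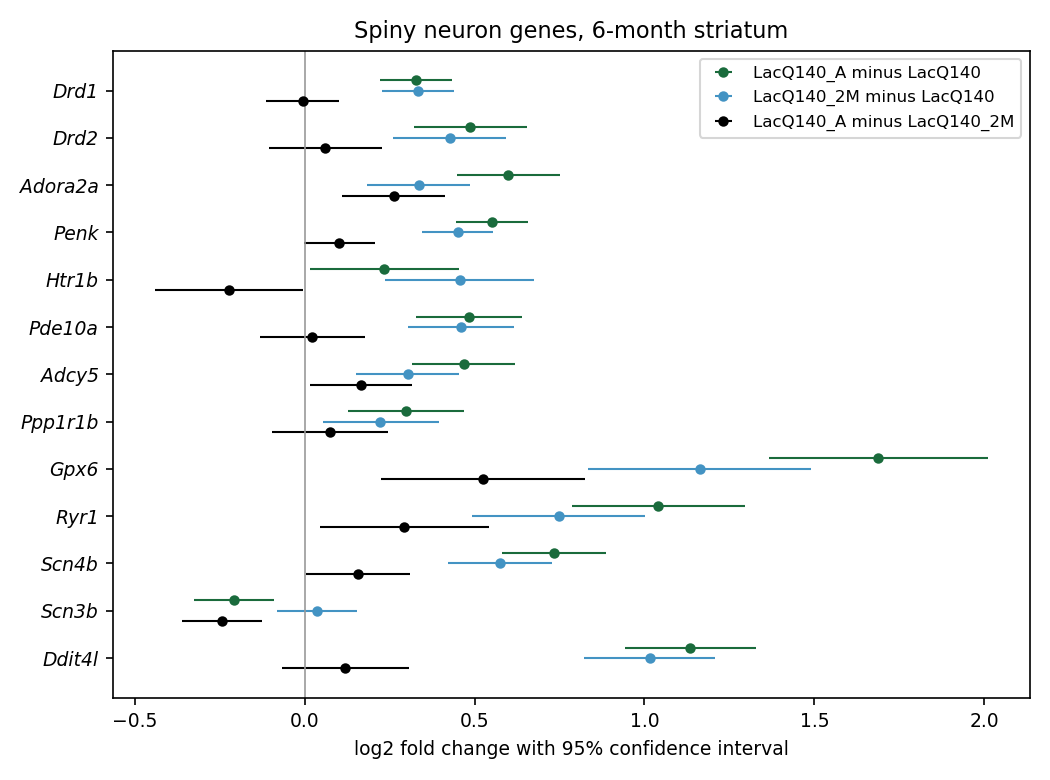
Log2 fold changes with 95% confidence intervals of 13 genes in 6-month striatum. All are listed spiny neuron genes except *Ddit4l*, which is on none of the lists and was chosen after its values were seen. Green and blue give LacQ140_A and LacQ140_2M against LacQ140, which share the LacQ140 libraries, and black gives LacQ140_A minus LacQ140_2M. The black intervals of *Drd1*, *Drd2*, *Pde10a* and *Ppp1r1b* include 0, and those of *Adcy5* and *Scn4b* lie just above 0.

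For a LacQ140 signature, genes called for LacQ140 against WT + IPTG (7.93% of those tested) were kept if WT + IPTG against WT did not call them too. It uses no library of the lowering groups, and held 1387 risen and 1335 fallen genes. Of these 2722 genes 2 were called between the lowering groups, beside 0.0251% of all genes, and none without LacQ140_A F1 and M1. They were *Sec14l3* and *Rasl10a*, both fallen in LacQ140. Among the fallen genes at 1 CPM or more, 499 of 1102 were higher in LacQ140_A, or 45.3% beside 48.4% of all genes, and the median difference was -0.02. Without LacQ140_A F1 and M1 454 were higher and 648 lower, with a median of -0.03. At an unadjusted p under 0.05, 99 fallen genes were lower (9.0%, beside 6.28% of all genes) and 67 higher (6.1%, beside 4.8%). Without LacQ140_2M M1 this balance turned, with 72 lower and 75 higher, 545 of the 1102 higher and a median of -0.002. Among the risen genes 715 of 1071 were higher in LacQ140_A (66.8%), with a median of 0.05, and 736 were without LacQ140_A F1 and M1. At an unadjusted p under 0.05, 117 risen genes were higher (10.9%) and 28 lower (2.6%). The 95% interval lay within a change of 20% for 521 of the fallen (47.3%) and 532 of the risen genes (49.7%). These were smaller shares than among all genes at 1 CPM or more (9864 of 14721). The signature was set against WT + IPTG, not WT. WT + IPTG itself differed from WT by a median of -0.10 over the risen and 0.07 over the fallen genes at 1 CPM or more.

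Striatal genes that change in several HD mouse models, 195 that fall and 71 that rise, had been listed by the study's authors in earlier work. Of the 183 fallen members at 1 CPM or more, 128 were higher in LacQ140_A (69.9%), the median difference was 0.07, and 30 had an unadjusted p under 0.05 in that direction (16.4%) where 4.8% of all genes did. *Sec14l3* alone was called, and 133 of the 183 were higher without LacQ140_A F1 and M1. LacQ140_A replicate F4 had the highest summed level of these genes, 40870 CPM against a group median of 35590 CPM. Without it the median difference was 0.04, with 122 of the 183 higher and 23 at an unadjusted p under 0.05. Of the 61 risen members 38 were lower in LacQ140_A (62.3%, beside 51.6% of all genes), with a median of -0.06 (-0.04 without LacQ140_2M M4), and 36 were without F1 and M1. *Mafa*, a transcription factor of the fallen list, was chosen after its values were seen. Its medians were 3.18 CPM in LacQ140_A, 1.86 in LacQ140_2M and 0.963 in LacQ140 (log2 difference 0.60, adjusted p = 0.131). In the females 139 of the 183 fallen members were higher in LacQ140_A, beside 48.4% of all genes, and in the males 94, beside 48.2%. That difference between the sexes was not tested.

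Genes that responded to IPTG in WT mice mostly differed in the opposite direction between LacQ140_A and LacQ140_2M. Between WT + IPTG and WT 136 genes rose and 73 fell with IPTG (0.584% of those tested), and neither group shares a library with LacQ140_A or LacQ140_2M. Single WT + IPTG libraries were high in markers of other tissue. Listed ependyma and choroid plexus genes summed to 787 CPM in WT + IPTG M5, against a group median of 91.02 CPM. Those of pallidum, septum and thalamus summed to 483.5 CPM in WT + IPTG F5. Their medians were 223.8 CPM in WT + IPTG and 168.2 CPM in WT. How far the risen genes reflect such tissue in these libraries was not tested. Of the 111 risen genes at 1 CPM or more, 98 were lower in LacQ140_A than in LacQ140_2M (88.3%), where 51.6% of all genes were. Their median difference was -0.14, and 42 had an unadjusted p under 0.05 in that direction (37.8%, beside 6.28% of all genes) and 0 in the other. Of the 64 fallen genes 56 were higher in LacQ140_A (87.5%, beside 48.4% of all genes), with a median of 0.17, and 25 had an unadjusted p under 0.05 in that direction (39.1%, beside 4.8%) and 0 in the other. The 25 became 15 without LacQ140_2M M3, with 2 in the other direction, and 15 without LacQ140_A F4, with 1 in the other. *P2ry14* alone was called. Without LacQ140_A F1 and M1, 100 of the 111 risen genes were lower and 57 of the 64 fallen genes higher. Relative to LacQ140, which was on IPTG throughout, the risen genes had a median of 0.08 in LacQ140_2M and -0.09 in LacQ140_A, and the fallen genes -0.08 and 0.05. Both values share the LacQ140 libraries. The medians of LacQ140_2M, off IPTG for 4 months, thus lay on the side of the WT response to IPTG. LacQ140, though on IPTG, differed from WT + IPTG by a median of -0.35 for the risen and 0.31 for the fallen genes. The WT response itself had medians of 0.47 and -0.40. Both share the WT + IPTG libraries by which the genes were chosen. Across these 175 genes the differences had a Pearson correlation of -0.664 with the IPTG response, and over all 14721 genes at 1 CPM or more it was -0.327. These are descriptions across genes that share libraries and are not independent, and the 175 were chosen for a large IPTG response.

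**Figure D4:**
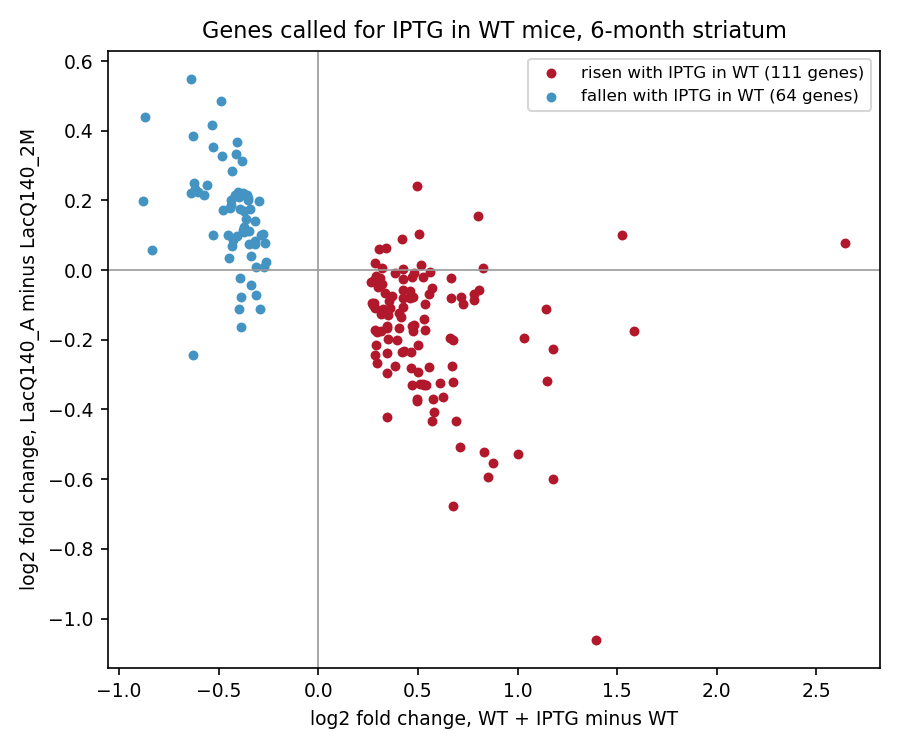
Log2 fold change for IPTG in WT mice (x axis) against LacQ140_A minus LacQ140_2M (y axis) for the 111 risen and 64 fallen IPTG-responsive genes at 1 CPM or more. Each point is 1 gene. Risen genes lie mostly below 0 on the y axis and fallen genes mostly above it.

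LacQ140_2M mice had received IPTG until 2 months of age and LacQ140_A mice never had, so past IPTG exposure and past m*Htt* expression cannot be told apart in this comparison. The pattern was alike in cortex of the same mice, where 84 of 110 risen genes were lower in LacQ140_A (53.9% of all genes were). It ran the other way in 12-month striatum from other mice, where 99 risen genes were higher in LacQ140_A and 17 lower, and 51 of 64 fallen genes were lower. At that age 48.7% of all genes were higher and 51.3% lower. In 12-month striatum 815 of 1074 fallen genes of the LacQ140 signature were higher in LacQ140_A, and 884 of 1073 risen genes were lower. The difference between ages was not tested, because the 2 ages were deposited apart.

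Glucocorticoid responsive genes were mostly lower in LacQ140_A. Of 22 members at 1 CPM or more 21 were lower, with a median of -0.23, where 51.6% of all genes were lower. At an unadjusted p under 0.05 there were 10 in that direction (45.5%), where 6.28% of all genes were, and 0 in the other, though none was called. In the males the median was -0.37 with 15 of the 22 lower at an unadjusted p under 0.05, and in the females -0.16 with 3, beside 2.62% and 6.02% of all genes. That difference between the sexes was not tested for the list. *Zbtb16*, a transcription factor induced by steroids, had lowest, median and highest levels of 3.87, 6.16 and 16.5 CPM in LacQ140_A and 6.36, 15.9 and 30.5 CPM in LacQ140_2M. All 10 LacQ140_2M mice lay above the LacQ140_A median, while the ranges overlapped (log2 difference -1.06, SE 0.26, adjusted p = 0.132). *Fkbp5*, a co-chaperone of the glucocorticoid receptor, had medians of 54.9 and 69.4 CPM (-0.35, adjusted p = 0.314), and *Pdk4*, a kinase that restrains pyruvate oxidation, gave -0.38 (adjusted p = 0.337). Without LacQ140_A F1 and M1, 20 of the 22 were lower, 7 of them at an unadjusted p under 0.05. The list overlaps the IPTG-responsive genes, which hold 8 of the 22. *Zbtb16* and *Pdk4* rose with IPTG in WT mice (log2 difference 1.40, adjusted p = 0.002, and 0.50, adjusted p = 0.028), and *Fkbp5* gave 0.27 (adjusted p = 0.380). In cortex of the same mice 22 of 24 members were lower in LacQ140_A, and in 12-month striatum 18 of 22 were higher.

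Among circadian clock genes 14 of 19 were lower in LacQ140_A (73.7%, beside 51.6% of all genes) and 5 had an unadjusted p under 0.05 in that direction (26.3%, beside 6.28%). Without LacQ140_2M replicate F1 11 were lower and 8 higher, and without LacQ140_A F1 and M1 13 were lower, 3 of them at an unadjusted p under 0.05. *Per2*, a core repressor of the clock, had medians of 27.3 CPM in LacQ140_A and 45.2 CPM in LacQ140_2M (-0.57, adjusted p = 0.179), and *Nr1d2*, which encodes the nuclear receptor REV-ERB beta, 82.3 and 99.3 CPM (-0.27, adjusted p = 0.172). Hour of tissue collection is not given in the labels. Of 31 immediate early genes, which neurons switch on after activity, 17 were higher in LacQ140_A (54.8%, beside 48.4% of all genes) and 14 lower. At an unadjusted p under 0.05 there were 10 in the higher direction (32.3%, beside 4.8%) and 1 in the lower. That 10 fell to 4 without LacQ140_A F4 or without LacQ140_2M M3, where the median of 0.14 became 0.03 and 0.05, and to 6 without LacQ140_2M F3. The median was 0.04 without LacQ140_A F5, 0.08 without LacQ140_A M5 and 0.07 without LacQ140_2M M1. Without LacQ140_A F1 and M1, 24 of the 31 were higher. The IPTG-responsive genes hold 4 of the 31. *Jun*, a subunit of the AP-1 transcription factor, had medians of 23.0 CPM in LacQ140_A and 18.0 CPM in LacQ140_2M (0.37, adjusted p = 0.132), and *Gadd45b*, a stress and activity response gene, 19.1 and 14.6 CPM (0.39, adjusted p = 0.221).

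**Figure D5:**
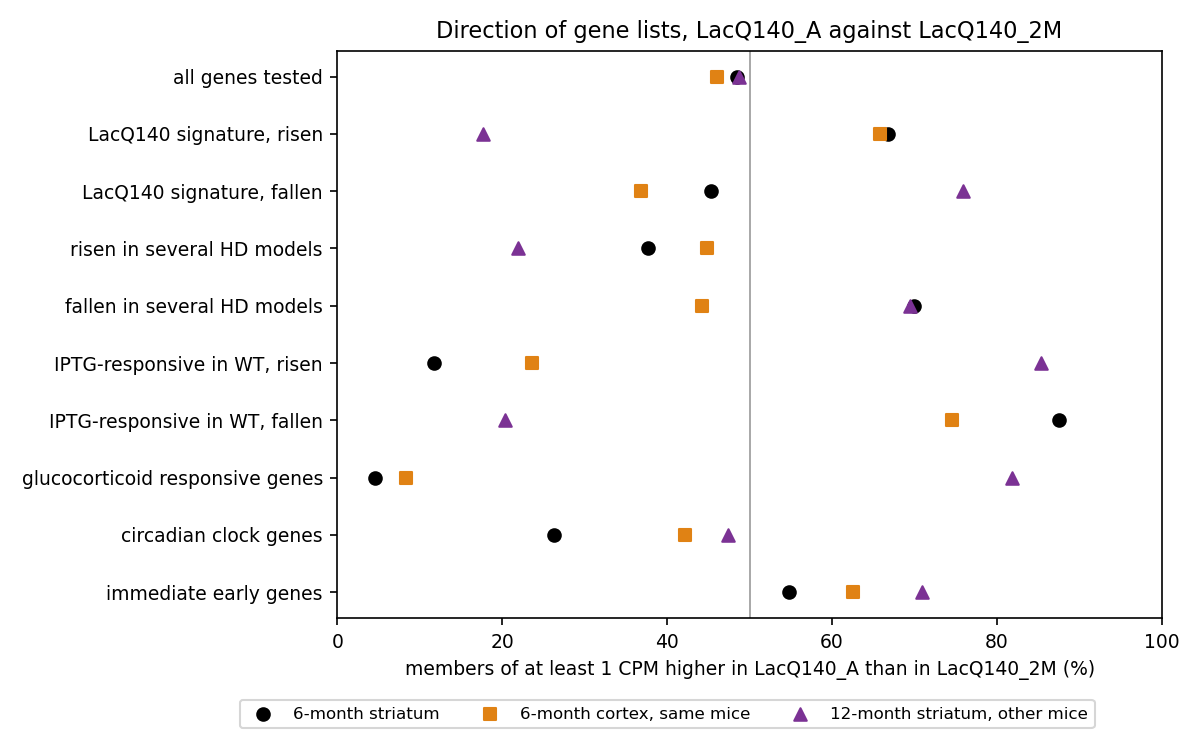
Share of list members at 1 CPM or more, in percent, that were higher in LacQ140_A than in LacQ140_2M, for 6-month striatum (circles), 6-month cortex of the same mice (squares) and 12-month striatum of other mice (triangles). Glucocorticoid responsive and IPTG-responsive genes lie on opposite sides of 50% at the 2 ages.

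Markers of other cells had small median differences over both sexes. Of 19 microglial genes at 1 CPM or more 18 were higher in LacQ140_A (94.7%, beside 48.4% of all genes), with a median of 0.07. Without LacQ140_A F1 and M1 17 were higher, and without LacQ140_2M F1 15 were. At an unadjusted p under 0.05 there were 3 in the higher direction (15.8%, beside 4.8%) and 0 in the lower. In the females 18 of 19 were higher, with a median of 0.19 and 7 at an unadjusted p under 0.05, beside 3.67% of all genes. In the males 7 were higher, with a median of -0.03 and 0 at that p, beside 3.53%. *Cd74*, the invariant chain of antigen presentation, gave 0.51 (adjusted p = 0.255), and the summed level of the list ranged from 1046 to 1256 CPM in LacQ140_A and 942 to 1178 CPM in LacQ140_2M. Of 29 myelin and oligodendrocyte genes 22 were higher (75.9%, beside 48.4% of all genes), with a median of 0.07. The median was 0.15 in males and -0.01 in females, and 0.05 with 19 higher without LacQ140_A F1 and M1. The list was led by *Cspg4*, the NG2 proteoglycan of oligodendrocyte precursors (0.26, adjusted p = 0.244). Astrocyte genes had a median of 0.01, with 11 of 20 higher. Fewer cells of a type and less RNA per cell cannot be told apart in these bulk samples. Markers of cortical excitatory neurons summed to 619 to 856 CPM in LacQ140_A and 597 to 780 CPM in LacQ140_2M, and *Slc17a7*, a vesicular glutamate transporter of cortex chosen after its values were seen, reached 101 CPM in LacQ140_A replicate F2 against a group median of 7.23 CPM.

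No member of the other lists was called. Cholesterol synthesis genes had a median of -0.01 over 25 genes. Genes known to modify CAG repeat expansion had a median of -0.04, with 0 of 17 at an unadjusted p under 0.05. Heat shock genes had a median of -0.04 over 24 genes. Of the 64 listed developmental transcription factors under Polycomb control, 7 reached 1 CPM, with a median of 0.08. Endothelial and mural cell genes had a median of 0.08, interneuron genes 0.10 and genes of pallidum, septum and thalamus 0.10. Ependyma and choroid plexus genes had -0.13, and genes of neurogenesis and immature neurons -0.06. At an unadjusted p under 0.05, 4 of 19 neurogenesis genes were lower (21.1%, beside 6.28% of all genes) and 1 higher. Of 11 ependyma genes 2 were lower (18.2%) and 0 higher. Of 18 pallidum, septum and thalamus genes 3 were higher (16.7%, beside 4.8%) and 1 lower, and of 25 endothelial genes 4 (16.0%) and 1.

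The contrast was also compared between the sexes, with 5 mice a group. No gene was called for the difference between females and males in edgeR, with 1256 genes at an unadjusted p under 0.05 among 35808, and none was called when the 20 libraries were fitted alone. The smallest p belonged to *Cd93*, an endothelial and myeloid receptor, with a log2 difference of -0.43 in females and 0.61 in males (difference -1.03, SE 0.19, adjusted p = 0.06). Within females 3 genes were called (0.00838%), *Gm26723*, *Prl* and *Sec14l3*, all higher in LacQ140_A, with F4 and F1 the libraries of high *Gm26723* and *Prl*. The value of *Sec14l3* was 0.65 in females (adjusted p = 0.04) and 0.42 in males. Within males 2 genes were called (0.00559%), *Zbtb16* and *Paqr5*, the latter named after its values were seen, both lower in LacQ140_A. *Zbtb16* gave -1.76 in males (adjusted p = 0.029), and its value in females was -0.31, a difference that did not pass the adjustment over all genes (adjusted p = 1.0). Between striatum and cortex of the same mice no gene was called in edgeR, with 1163 genes at an unadjusted p under 0.05. The smallest p belonged to *Adra2b*, an adrenergic receptor, at 0.53 in striatum and -0.58 in cortex (difference 1.15, SE 0.21, adjusted p = 0.369). On their own, the cortex contrast called 20 genes (0.0556%) and that of 12-month striatum 18 (0.0509%).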

How the data were processed

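Right striatum and cortex were profiled by RNA-Seq, and the 6-month striatal libraries of 50 mice entered the fit. The authors deposited expected counts per gene without normalization. Of the nonzero values 33.55% were not whole, and all were rounded here. The genome build named in the submitters' processing notes is GRCm38, and the aligner and quantifier are not given in the sources used here. Of 54532 identifiers 54495 matched GENCODE vM21. Genes with at least 1 count were tested with edgeR 4.0.16 (R 4.3.3; TMM factors, quasi-likelihood F-test) in a model of 5 groups, and p-values were adjusted by Benjamini-Hochberg over all genes. The difference between sexes was an interaction term, and that between tissues had a term for the mouse. Lists were described by counts and medians, with no set test. No pair among the 90 within-group pairs agreed within sampling noise (lowest chi-square/df 8.13).

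Named genes were *Htt*, up to 10 called genes a direction at a mean of 1 CPM or more, 6 spiny neuron genes, up to 4 genes a list, and the gene of smallest p for each difference. Others are marked where they appear. The compared groups, members and lists were chosen with earlier results of these data known. Alternatives were DESeq2 1.42.0 and its size factors, filterByExpr, the 20 libraries alone, sex, replicate or length terms, no fold bound, and leaving out each library. Scripts were tested on simulated data. Columns of fold changes or p-values were not used.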

Additional observations from a re-analysis of the deposited data

Results flagged for a closer look

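For the 22 genes checked, 1 library stood far from the others in 9 of 44 groups of 10 mice, by Dixon's criterion. In LacQ140_A these were *Prl* in F1 (74.3 CPM), *Pomc* in M1 (27.2 CPM), *Cga* in M1 (2.18 CPM), *Gm26723* in F4 (26.0 CPM), *Drd2* in F4 (282 CPM) and *Slc17a7* in F2 (101 CPM). In LacQ140_2M they were *Gh* in M5 (1.38 CPM), *Cga* in M5 (0.0645 CPM) and *Gm26723* in M1 (0.0753 CPM), the last a gene at 0 in the other 9 libraries. *Gh* in LacQ140_A was not among them, because F1 and M1 were both high. Dixon's rate by chance, about 1 of 20 groups, assumes normal values and genes chosen beforehand. It does not hold here, because the 22 genes include called genes, genes chosen after their values were seen and genes near 0 CPM.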

How the results depend on the processing

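The count of 9 called genes became 20 with DESeq2, of which 7 were among the 9, 15 with a covariate for the length slope of the libraries and 5 with the 20 libraries alone, of which 2 were among the 9. It was 1 without both libraries over 10 CPM of *Gh*. Leaving out 1 library at a time gave 4 to 32 genes, with 4 without LacQ140_2M M3, 14 without LacQ140_A F5 and 32 without LacQ140_A M5. The cause was not tested. Other alternatives gave 9 to 12. With the replicate block 12 genes were called. Replicate numbers belong to different mice, and same-numbered mice correlated by -0.068 to 0.518, over 0.1 in 5 of 10 pairs, so the numbers were not taken to pair them. Genes of the LacQ140 signature that were called numbered 2. With the signature redefined by the same tool they were 7 with DESeq2 and 5 with filterByExpr, and with the signature kept as defined they were 9 and 4, and 4 with the length covariate. Leaving out 1 library gave 0 to 10 of them, with 10 without LacQ140_A M5, 1 without LacQ140_2M F3, LacQ140_2M F4 or LacQ140_A F4, and 0 without LacQ140_2M M3, LacQ140_2M F1 or LacQ140_A F1. None was called without both libraries over 10 CPM of *Gh*. Every called gene kept its sign under each alternative. *Ripor2* lost its call in 3 of 28, *Sec14l3* in 4, *Rasl10a* in 8, *4930539E08Rik* in 12 and *P2ry14* in 15. *Htt* was never called, with log2 differences of -0.04 to 0.01 as single libraries were left out. The risen IPTG-responsive genes lower in LacQ140_A numbered 92 to 101 over the alternatives, and the fallen ones higher in LacQ140_A 53 to 57. Of the immediate early genes 4 to 13 had an unadjusted p under 0.05 in the higher direction, with 4 without LacQ140_2M M3 or LacQ140_A F4. *Gh* lost its call in 2 of 28, with the 20 libraries alone and without both libraries over 10 CPM of *Gh*. *Prl* lost it in these and without LacQ140_A F1. *Gm26723* lost it in 3 of 27, with DESeq2, with the 20 libraries alone and without LacQ140_A F4. *Cga* lost it in 4 of 27.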
